A study of Arabidopsis thaliana with 36 samples.

Results

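The probe sets described here are 100 of 22746 Arabidopsis probe sets that were lower on nitrate than on chloride after 2 days of uniform supply, with only small differences at the earlier times. They were chosen by measured values under a rule, mainly the group means of log2(signal + 16) on uniformly supplied plates. The mean signal had to be 69 or more, the nitrate minus chloride difference had to be below 0.4 in size at 2 hours and at 8 hours, and of the 13551 probe sets that met this, the 100 with the lowest difference at 2 days were kept. A working description had such genes as induced by nitrate deprivation, which was not tested. Only some of them were higher with time on chloride, and a change with time there does not separate deprivation from time on the plate. On uniform chloride, 49 of the 100 were higher at 2 days than at 8 hours and 51 were lower, by sign alone. This was near the share of all 15922 tested probe sets, of which 48.3% were lower. In limma 24 of the 100 were called higher and 27 lower, against 2538 and 2584 of the 15922. The rule used these arrays, so the calls are a description. The 100 are therefore called late nitrate-lower probe sets below. A single gene was listed for 53 of them, 52 protein-coding and 1 transcribed pseudogene, several genes for 2, and no gene for 45, which are named by probe set only.

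Total RNA came from roots of Arabidopsis thaliana, accession Columbia, and was hybridised to 36 single-colour Affymetrix arrays in 12 groups of 3 repeats. Seedlings grew on basal medium with 0.5 mM ammonium succinate, 0.1 mM KNO3 and 3 mM sucrose, were trimmed so that each kept a pair of main roots, and then had 0.5 mM ammonium succinate as their nitrogen source with each root in its own compartment. At an age of 12 to 14 days they went to segmented plates with 0.3 mM sucrose. Uniform plates (C) held 5 mM KNO3 on both sides (C.NO3) or 5 mM KCl on both sides (C.KCl), and split plates (Sp) held 5 mM KNO3 on one side (Sp.NO3) and 5 mM KCl on the other (Sp.KCl), whose roots were sampled apart at 2 hours, 8 hours or 2 days. No genetic alteration is given for any group, and how many plants made a sample is not given in the sources used here. Whether a KCl array belongs to uniform or split supply is labelled in conflicting ways, by its title and by its treatment entry. The titles were followed, and values with C.KCl and Sp.KCl exchanged are given where they change a result.

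Nitrate is a main nitrogen source of plants and also a signal. Roots respond to nitrate at their own surface within minutes to hours, and over a longer time to the nitrogen status of the whole plant, which is relayed between roots through the shoot. A split-root plate separates these, because a root on chloride is joined to a plant that is fed with nitrate elsewhere, and a root on nitrate to a plant of which some roots get none. On the arrays the signal is the brightness of a set of short probes, so levels of different genes cannot be compared with each other, and in whole roots fewer cells of a type and less RNA per cell cannot be told apart.

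The values that chose the probe sets are given first, as a description. At 2 days the uniform difference had a median of -0.73 on the log2 scale and ran from -5.44 to -0.63. Of the 100, 56 passed limma at an adjusted p of 0.05 in that contrast, in which 1.21% of all tested probe sets were called lower, and nothing is read from this since the rule used it. The limit was narrow. AT3G61400 at -0.64 and AT1G19650 at -0.63 were inside, and AT4G00270, AT3G22550 and AT1G27200 lay just outside, all 3 at -0.63. When the rule was applied to 2 of the 3 uniform repeats, the median difference of the chosen 100 in the repeat left out was -0.54, -0.51 and -0.42, and 85, 84 and 81 of the 100 were below 0 there, against 49.2%, 49.3% and 47.3% of all tested probe sets. The lists chosen in this way shared 55, 64 and 53 probe sets with the full list.

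**Figure D1:**
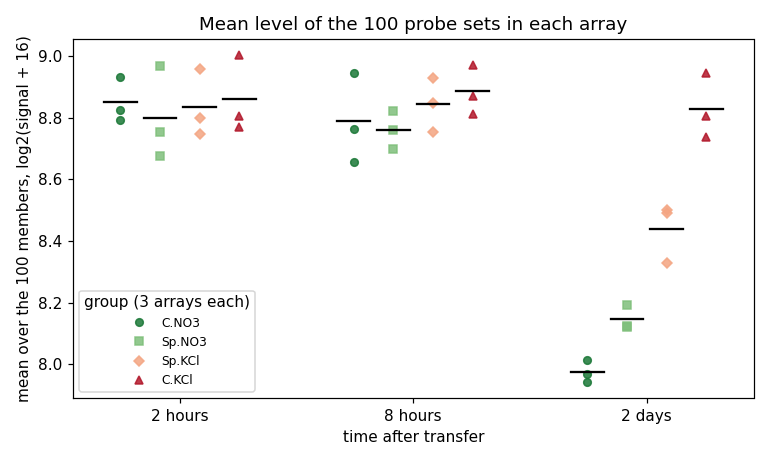
Mean of log2(signal + 16) over the 100 late nitrate-lower probe sets in each array (points; 3 per group) by time after transfer, with the group mean as a line. At 2 hours and 8 hours the group means lie between 8.76 and 8.89; at 2 days they spread from 7.98 on uniform nitrate to 8.83 on uniform chloride, with both split sides between.

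Averaged over the 100 probe sets, log2(signal + 16) on uniform chloride was 8.86 ± 0.13 (SD, n = 3) at 2 hours, 8.89 ± 0.08 at 8 hours and 8.83 ± 0.11 at 2 days. On uniform nitrate it was 8.85 ± 0.07, 8.79 ± 0.14 and 7.98 ± 0.04. These uniform values chose the probe sets and only describe them, and the nearly level mean on chloride averages probe sets that were higher and lower with time there. On the split plates at 2 days the mean was 8.15 ± 0.04 for Sp.NO3 and 8.44 ± 0.10 for Sp.KCl, and the arrays of the 4 groups did not overlap, as the plot of means by array shows. The rule fixed the order of the uniform groups. Because it took extreme differences of those arrays, groups whose differences it did not use lie between them in part by construction. The smaller differences in the repeats left out show this.

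The question the split plates address is whether a root responds to the nitrate it touches or to the supply of the whole plant, and their arrays were not used by the rule. At 2 hours no late nitrate-lower probe set was called between the split sides in limma, and the ordinary unmoderated model gave none either. At an unadjusted p of 0.05 there were 0 lower and 1 higher, while 0.00628% of all tested probe sets were called lower in limma. These fits are unpaired, although same-numbered repeats varied together at 2 hours (correlations of 0.555, 0.323 and 0.673), which limits what the absence of calls shows. At 8 hours 1 of the 100 was called lower on the nitrate side, against 0.0314% of all tested. It was AILP1 (AT5G19140), an aluminium-induced-like protein. Its signal was 1404, 1546 and 1399 on the nitrate side against 2020, 2249 and 2017 on the chloride side, so the sides did not overlap. The difference was -0.53 ± 0.10 (SE) with an adjusted p of 0.00562 in limma. Same-numbered repeats varied together at this time, and with the repeat as a block 3 of the 100 were called; without Sp.NO3 repeat 1 or Sp.KCl repeat 2 the count was 0, and without Sp.KCl repeat 3 it was 2.

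At 2 days 10 of the 100 late nitrate-lower probe sets were lower on the nitrate side of split plates and none was higher, where 0.251% of all tested probe sets were called lower and 0.546% higher. At an unadjusted p of 0.05 the counts were 38 lower and 2 higher, and the unmoderated model called 5 lower and none higher. The median difference over the 100 was -0.30 (quartiles -0.53 and -0.11), and 80 were below 0, while over all 15922 tested probe sets the median was 0.02 and 45.2% were below 0. In 39 of the 100 all 3 nitrate-side arrays lay below all 3 chloride-side arrays, against 6.53% of all tested, and in 5 they lay above, against 8.78%. At 8 hours the sides did not overlap in 10, against 5.41%, and at 2 hours in 4, against 2.03%. The count of 10 depended on single arrays: it was 1 without Sp.NO3 repeat 1 or Sp.KCl repeat 2, 2 without Sp.NO3 repeat 3 or Sp.KCl repeat 1, 4 without Sp.NO3 repeat 2 and 6 without Sp.KCl repeat 3. With the repeat as a block 21 were called lower, the 10 among them, and 1 higher. The labels do not tie repeats to plants, so which of these counts applies is not settled. With C.KCl and Sp.KCl exchanged the lower count was 42, but this contrast then holds arrays that the rule used.

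**Figure D2:**
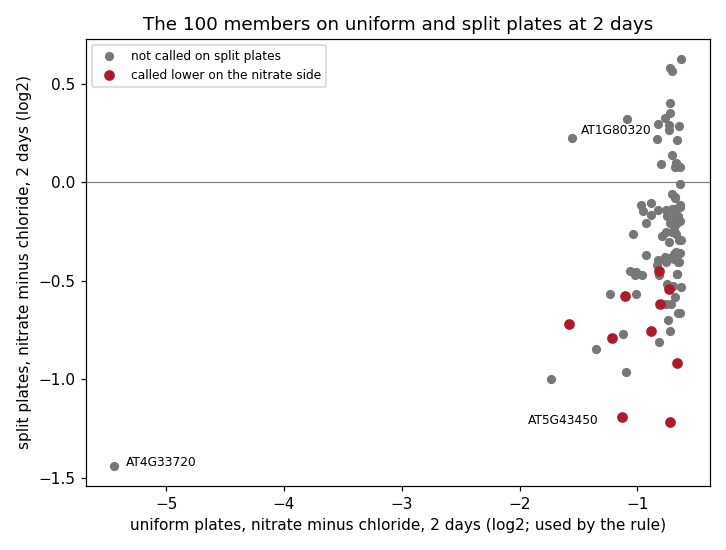
Nitrate minus chloride difference at 2 days (log2) of each of the 100 probe sets on uniform plates (horizontal axis, used by the rule) and on split plates (vertical axis). Red points are the 10 called lower on the nitrate side of split plates by limma; 80 of the 100 points lie below 0 on the vertical axis.

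The calcium-binding EF-hand protein AT2G46600 had the smallest adjusted p of the 10. At 2 days its signal was 1389, 1615 and 1557 on the nitrate side against 2403, 2340 and 2261 on the chloride side. It was 1604, 1352 and 1695 on uniform nitrate and 2526, 2564 and 3103 on uniform chloride. Each split side thus lay near the uniform plate of its own salt, and the split sides did not overlap. The split difference was -0.62 ± 0.13 (SE; adjusted p = 0.00723, limma), a 1.53-fold lower value on nitrate, and it lost the call only without Sp.NO3 repeat 1 among the arrays left out one at a time (adjusted p = 0.0773). At 8 hours the same sides had differed by -0.06 ± 0.13.

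AT5G43450, of the 2-oxoglutarate-dependent oxygenases, a large family that modifies hormones and specialised metabolites, had the largest difference among the called probe sets with a gene. Its signal at 2 days was 59.6, 86.0 and 87.5 on the nitrate side against 173, 216 and 202 on the chloride side. The sides did not overlap, and the difference was -1.19 ± 0.26 (adjusted p = 0.0161, limma), a 2.29-fold lower value on nitrate. Without Sp.NO3 repeat 1, Sp.KCl repeat 2 or Sp.KCl repeat 3 the adjusted p was 0.143, 0.0795 and 0.0570. The other 3 oxygenases did not pass. AT3G13610, the feruloyl-CoA hydroxylase of scopoletin and coumarin synthesis, gave -0.21 ± 0.21, AT3G61400 gave 0.08 ± 0.25, and AT1G80320 gave 0.22 ± 0.35. For AT1G80320 the uniform difference was -1.56, with 105, 93.7 and 68.3 on C.NO3 against 336, 177 and 407 on C.KCl, while both split sides stayed near the uniform nitrate level, at 54.9, 136 and 82.5 on Sp.NO3 and 155, 34.7 and 61.2 on Sp.KCl. With C.KCl and Sp.KCl exchanged its split difference turned to -1.58. That contrast then holds arrays that the rule used, so nothing is read from its size.

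**Figure D3:**
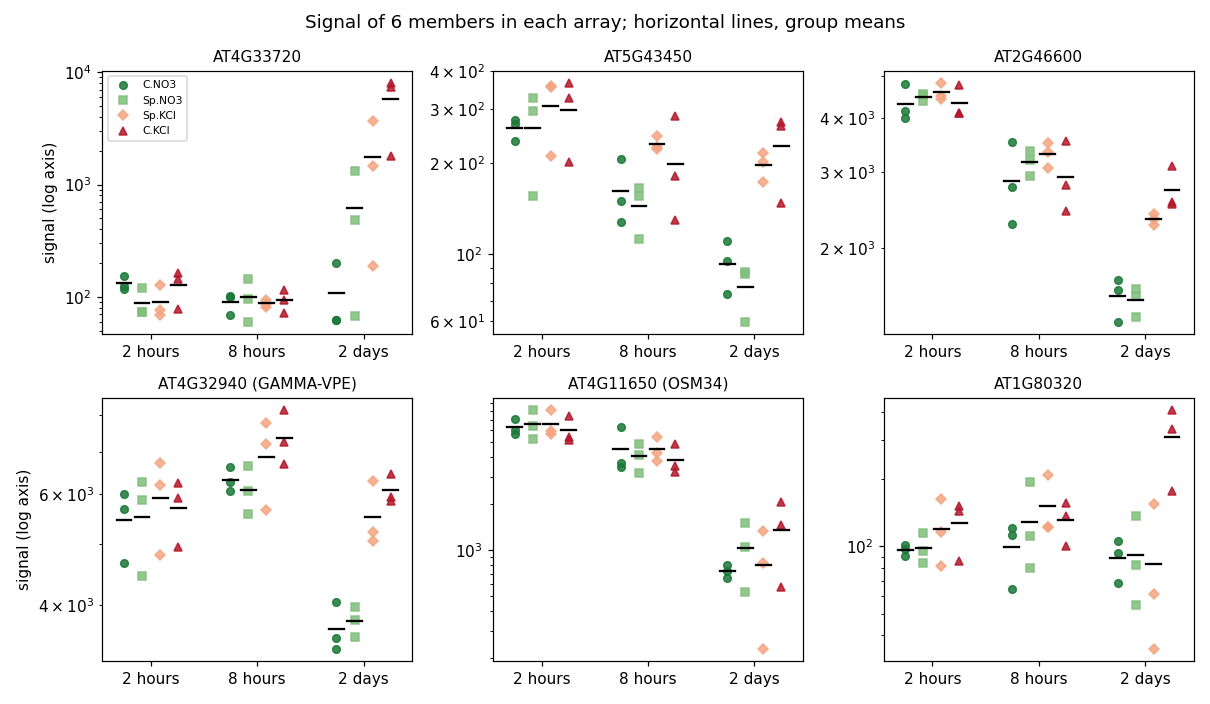
Signal (log axis) of AT4G33720, AT5G43450, AT2G46600, GAMMA-VPE, OSM34 and AT1G80320 in every array by time and group, with group means as lines. At 2 days AT5G43450, AT2G46600 and GAMMA-VPE separate by the salt at the root, AT4G33720 spreads widely between repeats, and AT1G80320 is high on uniform chloride but not on the split chloride side.

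Genes of stress-related membrane proteins made up 4 of the 100: the WCOR413-type cold acclimation proteins AT4G37220 and AT2G23680 and the cysteine-rich transmembrane module proteins AT2G32190 and AT1G05340. All 4 were below 0 on split plates at 2 days, with a median of -0.37, and AT1G05340 alone passed. Its signal was 532, 437 and 571 on the nitrate side against 1230, 873 and 867 on the chloride side, a difference of -0.92 ± 0.23 (adjusted p = 0.0438, limma) with no overlap. This call is near the threshold, since each single array left out raised the adjusted p, to between 0.0557 and 0.308. All 4 genes fell from 8 hours to 2 days on both split sides, as did 11.3% of all tested probe sets and 39 of the 100, for AT1G05340 with -0.95 on the chloride side (adjusted p = 0.00168) and -1.55 on the nitrate side (adjusted p = 4.58e-06).

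Of 6 genes of recycling and protein turnover, 4 were below 0 on split plates and 1 passed. GAMMA-VPE (AT4G32940), a vacuolar protease that matures other vacuolar proteins, had 3561, 3974 and 3795 on the nitrate side against 5056, 5221 and 6290 on the chloride side, again without overlap. The difference was -0.54 ± 0.13 (adjusted p = 0.0427, limma), and it did not pass when any 1 of the 6 arrays was left out (adjusted p from 0.0658 to 0.199). AAH (AT4G20070), which frees ammonium from allantoate in the recycling of purine nitrogen, differed on uniform plates by -0.80 and on split plates by 0.09 ± 0.15. Its split arrays read 841, 838 and 849 on nitrate and 778, 726 and 870 on chloride. They overlapped C.NO3, at 520, 865 and 699, and all lay below C.KCl, at 1140, 1161 and 1289. MAP1B (AT3G25740), a methionine aminopeptidase, gave -0.19 ± 0.20, the RING-finger gene AT4G09110 gave -0.70 ± 0.27 (adjusted p = 0.415, limma), and the F-box genes AT4G29420 and AT2G14290 gave -0.08 ± 0.22 and 0.21 ± 0.19.

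Defence-type proteins counted 6 of the 100, and none was called between the split sides at 2 days, with 4 below 0 and a median of -0.38. AT4G33720, of the pathogenesis-related protein 1 family of secreted defence proteins, had by far the lowest uniform difference, -5.44. At 2 days its signal was 198, 62.5 and 62.0 on C.NO3 and 8082, 1788 and 7384 on C.KCl. On split plates it was 487, 66.9 and 1320 on nitrate and 1461, 188 and 3670 on chloride. Between arrays of the same repeat number the chloride side was the higher, but the labels do not tie these to the same plants. Repeats differed so much that the sides overlapped, and the difference of -1.44 ± 0.72 did not pass (adjusted p = 0.621, limma). At 8 hours all 12 arrays read between 59.4 and 143. The rise from 8 hours to 2 days was 3.32 on the split chloride side (adjusted p = 6.87e-04), and 1.79 was measured on the split nitrate side (adjusted p = 0.0579).

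The class V chitinase ChiC (AT4G19810), which cuts fungal cell wall polymers, had 435, 401 and 519 on the nitrate side at 2 days and 736, 654 and 978 on the chloride side. The sides did not overlap, yet the difference of -0.77 ± 0.24 missed the threshold (adjusted p = 0.165, limma). The mannose-binding lectin AT5G18470 gave -0.62 ± 0.29 and the germin-like cupin AT1G18980 gave -0.13 ± 0.12. OSM34 (AT4G11650), an osmotin-like thaumatin, and the class III peroxidase AT1G49570 were above 0, at 0.56 ± 0.41 and 0.32 ± 0.24, and neither passed. For OSM34 the arrays read 1040, 536 and 1505 on nitrate and 820, 227 and 1338 on chloride, which overlap. Of these 6 genes, 4 fell from 8 hours to 2 days on both split sides (ChiC, OSM34, AT5G18470 and AT1G18980), against 11.3% of all tested probe sets, and AT4G33720 rose on the chloride side.

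Genes of lipid and specialised metabolism formed the largest role group, 9 of the 100. All 9 were below 0 between the split sides at 2 days, with a median of -0.39 and a range from -0.66 to -0.08, and none passed. FACT (AT5G63560), the caffeoyl transferase that makes waxes deposited with suberin, came closest: 618, 646 and 494 on nitrate and 915, 770 and 756 on chloride did not overlap, and the difference was -0.47 ± 0.13 (adjusted p = 0.0952, limma). The glucosyltransferase UGT72B3 (AT1G01420) gave -0.38 ± 0.16, the SABATH-type methyltransferase AT5G37990 -0.51 ± 0.26, the lipid transfer protein AT3G58550 -0.39 ± 0.18, and the Sec14-like proteins AT1G22180 and AT1G19650 -0.08 ± 0.14 and -0.66 ± 0.24. From 8 hours to 2 days 6 of the 9 fell on nitrate and 4 on chloride, against 14.9% and 16.7% of all tested probe sets and 52 and 42 of the 100. FACT fell by 1.41 on nitrate (adjusted p = 1.18e-09) and fell by 0.87 on chloride (adjusted p = 6.51e-06).

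Calcium and signalling genes were 4: AT2G46600 (above), the C2-domain gene AT4G15740 at -0.30 ± 0.25, the GRAM-domain gene AT5G13200 at -0.25 ± 0.19 and the TRAF-like gene AT4G00780 at 0.32 ± 0.21. Apart from AT2G46600 none passed. Of the other 20 genes, 17 were below 0 and 2 passed, AILP1 and AT2G17710, to which no role is given here. AT2G17710 had 1467, 1568 and 1551 on the nitrate side against 2590, 2607 and 2562 on the chloride side at 2 days. These tight and separate values gave -0.75 ± 0.16 (adjusted p = 0.0149, limma), a 1.69-fold lower value on nitrate; of the arrays left out one at a time, only omission of Sp.KCl repeat 3 kept the call (adjusted p = 0.0426), the others giving 0.0535 to 0.0871. AILP1 read 1698, 1673 and 1711 against 2412, 2449 and 2110, a difference of -0.45 ± 0.10 (adjusted p = 0.0161, limma). It too kept its call only without Sp.KCl repeat 3 (adjusted p = 0.0126), the others giving 0.0584 to 0.105.

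Of the 47 probe sets with no gene or several listed, 37 were below 0 on split plates, with a median of -0.30, and 4 were called. Of the 53 with 1 gene, 43 were below 0, with a median of -0.25, and 6 were called. Of all tested probe sets 45.2% were below 0 and 0.251% were called lower. The 4 calls without a gene were 258975_at at -1.22 ± 0.27, 262244_at at -0.79 ± 0.20, 258809_at at -0.72 ± 0.17 and 247212_at at -0.58 ± 0.12, with adjusted p values in limma of 0.0142, 0.0487, 0.0254 and 0.0127. When arrays were left out one at a time, 262244_at lost its call every time (adjusted p from 0.0686 to 0.187), 258975_at and 247212_at lost it in 4 of 6 cases (at most 0.167 and 0.112) and 258809_at in 4 of 6 (at most 0.190). With an offset of 64 in place of 16, 258975_at did not pass (adjusted p = 0.0642), and with an offset of 1 neither did 262244_at (adjusted p = 0.0509). The probe set 258975_at had the largest difference of all 10 calls but was dim on the nitrate side, with signals of 32.7, 71.7 and 22.3 against 122, 122 and 92.1. In all 10 the split sides did not overlap at 2 days, against 6.53% of all tested probe sets lower on nitrate without overlap. Since the 10 were picked by their p on these same arrays, this adds no support.

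The time course on the split plates showed that many late nitrate-lower probe sets fell with time on both sides. RNA control ratios and root hair markers also shifted between 8 hours and 2 days, as given below. Between 8 hours and 2 days 52 of the 100 fell on the nitrate side and 7 rose, against 14.9% and 15.7% of all tested probe sets, with a median change of -0.53. On the chloride side 42 fell and 13 rose, against 16.7% and 14.5%, with a median of -0.38. Falls on both sides were shared by 39 of the 100 and rises on both sides by 6, against 11.3% and 9.99% of all tested. Without Sp.NO3 repeat 2 at 8 hours, or without Sp.NO3 repeat 3 at 2 days, 4 rather than 7 rose on the nitrate side. With C.KCl and Sp.KCl exchanged, 27 fell and 24 rose on the chloride side. The change in the salt difference from 8 hours to 2 days was called in none of the 100 by limma or the unmoderated model. At an unadjusted p of 0.05 it was 10 lower and 1 higher, its median was -0.18, and of all tested probe sets 0% were called lower and 0.00628% higher.

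AT1G64370, without a role given here, fell most. At 8 hours it read 5073, 4569 and 3933 on Sp.NO3 and 4542, 4439 and 4147 on Sp.KCl, and at 2 days 322, 167 and 187 on Sp.NO3 and 450, 238 and 265 on Sp.KCl. It fell by 4.28 on nitrate and fell by 3.77 on chloride on the log2 scale, each ± 0.21 (adjusted p = 1.3e-15 and 3.7e-14, limma), 19.4-fold and 13.7-fold. The 2-day split difference of -0.47 ± 0.21 was small beside them and did not pass (adjusted p = 0.543). In the same direction AT3G13610 fell 2.48-fold on nitrate and 2.16-fold on chloride. OSM34 fell 4.19-fold on nitrate and 6.89-fold on chloride, and ChiC 4.61-fold and 3.35-fold.

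Among the genes that rose, AT2G36950, with a heavy-metal-associated domain, did so on both split sides, by 0.90 ± 0.15 on nitrate and 0.66 ± 0.15 on chloride (adjusted p = 3.67e-05 and 0.00116, limma). AT2G41730, whose probe set may also bind other transcripts, rose by 0.95 ± 0.25 on chloride (adjusted p = 0.0044), from 249, 207 and 262 to 556, 431 and 448, and 0.37 ± 0.25 was measured on nitrate (adjusted p = 0.281). The threonyl-tRNA synthetase AT1G17960 rose by 0.46 ± 0.15 and the transcribed pseudogene AT5G36270 by 0.65 ± 0.18 on chloride (adjusted p = 0.0215 and 0.00508). AAH rose by 0.55 ± 0.15 on nitrate (adjusted p = 0.00701).

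**Figure D4:**
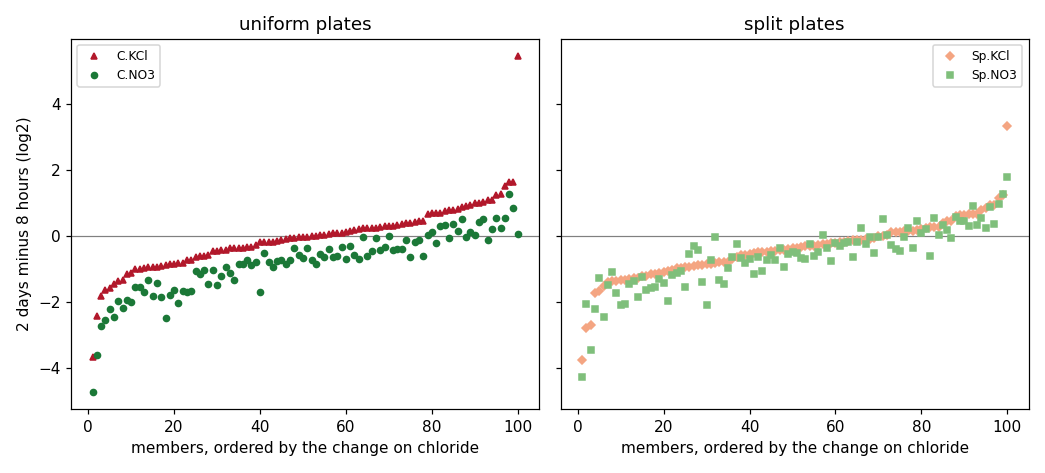
Change from 8 hours to 2 days (log2) of each of the 100 probe sets on uniform plates (left) and split plates (right), ordered in each panel by the change on chloride. On uniform plates nitrate lies below chloride for every probe set, which the limits of the rule fix. On split plates the sides run closer together, with 52 falls called on nitrate and 42 on chloride.

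The 100 were also divided by the sign of their change on uniform chloride, which uses 2-day arrays that the rule used. The 49 that were higher at 2 days than at 8 hours had 13 rises and 4 falls called on the split chloride side, while of all tested probe sets divided in this way 27.3% rose and 1.04% fell. The 51 that were lower had 38 falls and no rise, against 33.4% and 0.793%. The share of rises among the 49 was thus near that of all tested probe sets. On the nitrate side of split plates at 2 days 38 of the 49 were below the chloride side, with a median of -0.26 and 5 calls, and 42 of the 51, with a median of -0.37 and 5 calls. By description, 31 of the 49 were lower with time on uniform nitrate and 18 were higher there as well. All 51 were lower with time on both uniform media. The rule fixes this, since its limits put the change on uniform nitrate below that on uniform chloride for every member. Changes on uniform chloride of 1 or more on the log2 scale were upward in 9, AT4G33720 among them at 5.46, and downward in 12.

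Between plates at 2 days the values are again a description, since they hold the extreme uniform values that the rule took. The split chloride side lay below uniform chloride in 92 of the 100, with a median of -0.35, and the split nitrate side lay above uniform nitrate in 72, with a median of 0.17. On a scale that puts uniform nitrate at 0% and uniform chloride at 100%, the split nitrate side had a median of 20.2% (quartiles -1.41% and 42.3%) and the split chloride side 57.3% (quartiles 38.0% and 75.2%). The order from C.NO3 through Sp.NO3 and Sp.KCl to C.KCl held in 47, and in 24 Sp.NO3 lay below C.NO3 with the rest in the same order. In 13 the split sides were turned round between the uniform groups. With C.KCl and Sp.KCl exchanged, the chloride-side median was 0.35.

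Genes differed in where the split chloride side lay, by description only. The genes named first were called between the split sides, and the next ones had split differences above 0. Their contrast thus follows in part from the choice. All positions rest on the titles of the KCl arrays and were not tested. For AT2G17710, AILP1, GAMMA-VPE and AT5G43450 it was at 79.2%, 81.0%, 80.2% and 86.4% of the way to uniform chloride, and their split nitrate sides at -5.82%, 26.2%, 6.21% and -19.4%. For AT1G80320, AT1G49570 and OSM34 the split chloride side was at -16.0%, -3.19% and -27.0%, at or below uniform nitrate. For AT1G49570 the signals were 103, 66.8 and 141 on Sp.KCl against 262, 174 and 285 on C.KCl and 89.7, 98.9 and 120 on C.NO3. For AAH, whose split arrays overlapped uniform nitrate, the values were 38.0% on nitrate and 26.3% on chloride.

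Among the 53 genes, 2 pairs lay with at most 2 genes between them. AT5G22550, of an uncharacterised plant family, and AT5G22555 adjoin each other and gave 0.26 ± 0.16 and -0.17 ± 0.30 between the split sides at 2 days. AT2G46600 and AT2G46630 have 2 genes between them, with -0.62 ± 0.13 and -0.17 ± 0.31.

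Genes of nitrogen and stress pathways were described from lists. Of 131 listed genes 41 had a probe set with that gene alone and 29 were tested. On uniform plates at 2 days 2 of the 29 were lower and none higher, against 1.21% and 1.31% of all tested: AT4G33720, which is in the list by the rule, and the autophagy gene ATG8B at -0.58 (adjusted p = 0.0168, limma). With the repeat as a block 5 were called, and without C.NO3 repeat 1, C.KCl repeat 1 or C.KCl repeat 3 only 1 was. The labels do not tie repeats to plants, so which count applies is not settled. On split plates 1 was lower and 2 were higher, against 0.251% and 0.546% of all tested. The thaumatin-like AT1G20030 was lower on the nitrate side, at -1.14 (adjusted p = 0.0123), and the nitrate-inducible transcription factor gene AT3G25790 and the 6-phosphogluconate dehydrogenase gene AT1G64190 were higher on nitrate by 1.27 and 0.42 (adjusted p = 2.89e-05 and 0.0316). Without Sp.NO3 repeat 1 or Sp.KCl repeat 2, 1 of these 3 calls was left.

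By list, 9 genes of the ATG8 family, which coats autophagosomes, were tested, and their split differences were all below 0, from -0.29 to -0.12, with none called. Of 6 pathogenesis-related genes tested 1 was called on split plates (AT1G20030), and the median was -0.34. All 5 nitrate-inducible genes tested were above 0 on split plates, with a median of 0.42. The 4 senescence genes gave a median of 0.06 and the 3 glutaredoxins 0.32, with none called. The single tested genes for sulfate assimilation (SIR) and flavonoid synthesis (UF3GT) gave 0.36 and 0.54 and were not called. No gene of the lists for nitrogen deprivation transport, phosphate starvation or suberin had a tested probe set with that gene alone.

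Array quality and cell markers at 2 days were set beside these values. The log2 ratio of the 3' to the 5' control probe sets was 1.30 to 1.40 on C.NO3, 1.14 to 1.29 on Sp.NO3, 1.25 to 1.48 on Sp.KCl and 1.29 to 1.49 on C.KCl. The root hair expansins EXPA7 and EXPA18 (2 of 7 listed markers were tested) summed to 2335 to 2881 on C.NO3, 2533 to 2857 on Sp.NO3, 2626 to 3327 on Sp.KCl and 2872 to 3382 on C.KCl. The shoot markers RCA and LHCB4.2 (2 of 10) summed to 473 to 565, 394 to 478, 272 to 372 and 242 to 315 in that order, so that they ran opposite to the late nitrate-lower probe sets, and neither was at 0. At 8 hours, the other time of the split time course, the ratio was 0.80 to 0.98 on Sp.NO3 and 0.78 to 1.38 on Sp.KCl. The root hair sums were then 1471 to 1626 and 1418 to 1585, below those at 2 days. The shoot marker sums were 271 to 420 and 406 to 642. The part of these ratios and markers in any result, including the falls from 8 hours to 2 days, was not tested.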

How the data were processed

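RNA abundance was measured on 36 single-colour Affymetrix arrays, 1 per sample. The deposited intensity values are signals that the authors made with MAS5, per the submitters' processing notes, whose version and other steps no source used here states. The 64 control probe sets among 22810 were dropped. The scale is log2(signal + 16), with no normalization added, and the dimmest probe sets, under the 30th percentile of the mean (a signal of 68.9), were dropped too, which kept 15922. In R 4.3.3, limma 3.58.1 fitted 12 group means to all arrays (lmFit, contrasts.fit, eBayes with a trend; residual degrees of freedom 24, prior median 7.09). All p-values are two-sided and adjusted (Benjamini-Hochberg) over all 15922, threshold 0.05; SE is that of the fit. Their number, 3 arrays per group, limits the precision.

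The members, gene lists and role groups were chosen with earlier results of these data known. Contrasts that hold uniform arrays are descriptions for the members, and tests use split arrays. The labels call repeats biological without tying them to plants, so p-values measure the spread between these samples. Same-numbered arrays of the split sides correlated, in deviations from the group means, at 0.555, 0.323 and 0.673 at 2 hours, 0.347, 0.270 and 0.287 at 8 hours and 0.0856, 0.115 and 0.180 at 2 days, and those of the uniform media at 2 days at 0.143, 0.115 and 0.133. Same-numbered arrays of the split sides are said above to vary together at 2 hours and 8 hours, where every value exceeded 0.1. At 2 days the values of split and uniform plates were alike and small, and whether those arrays are paired is not settled. The fit held no repeat term, so all reported differences, SE and p-values are unpaired. Counts with the repeat as a block are given only as alternatives.

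Genes were named from the array's annotation where it lists 1 gene for a probe set, with symbols from RefSeq (TAIR10.1), which held all 53 loci. Named genes were the 15 lowest on uniform plates, the 10 and 5 of smallest p in the split contrasts, the 3 highest split differences, the 3 nearest the rank limit on each side, and members of shared families. Families and roles came from general knowledge of the genes, not from gene descriptions. Promoter and protein sequences were not analysed here. The test was tried on simulated data. Alternatives were other offsets, filters, normalization, sample sets, the repeat as a block, an unmoderated model, an exchange of C.KCl and Sp.KCl and the omission of single arrays.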

Additional observations from a re-analysis of the deposited data

Results flagged for a closer look

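In 5 of the 100 probe sets the arrays moved in opposite directions on the 2 kinds of plate at 2 days: all 3 uniform nitrate arrays lay below all 3 uniform chloride arrays, which the rule favours, while all 3 split nitrate arrays lay above all 3 split chloride arrays. The difference between the plates was not tested, and none of the 5 was called on split plates by limma. Such upward separation on split plates occurred in 8.78% of all tested probe sets. The pattern rests on the titles of the KCl arrays. With C.KCl and Sp.KCl exchanged, 99 of the 100 were below 0 on split plates, in a contrast that then holds arrays the rule used.

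The split difference was 0.62 for 254197_at, with signals of 83.9, 131 and 94.8 on nitrate and 53.0, 49.96 and 81.8 on chloride. It was 0.58 for 260693_at, a bright probe set with 5918, 6639 and 6398 on nitrate and 4512, 3673 and 4541 on chloride, against 3397, 5378 and 5683 on uniform nitrate and 7460, 7727 and 8152 on uniform chloride. The lowest of its 4 groups was thus the split chloride side and the highest the uniform chloride plate, by the titles. With C.KCl and Sp.KCl exchanged, all its split nitrate arrays would lie below the split chloride arrays, and the directions would not be opposite. For 251457_s_at the difference was 0.35, for 265897_at 0.22, and for the F-box gene AT2G14290 0.21, with 89.7, 85.1 and 76.0 on nitrate and 71.8, 67.1 and 70.4 on chloride. AT2G14290 and 251457_s_at are dim, so the number of arrays limits what their order can show.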

How the results depend on the processing

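Of the counts of calls recomputed under the alternatives, 203 stayed at 0 or within 1.5 times the reported count and 33 moved further. Counts that were 0 in both cases are among the 203 and show little about stability. Of the values of single genes and the values without a test, 1204 stayed called, stayed uncalled or kept their size. Among these values 40 lost the call, 20 gained it and 1 reversed, and 7 without a test moved. At 2 days the 10 members lower on the nitrate side of split plates became 6 with the 18 split arrays alone (4 of them shared), 5 in the unmoderated model (5 shared) and 42 with C.KCl and Sp.KCl exchanged (10 shared), and leaving out single arrays gave 1 to 6. With the replicate number as a block, 21 were lower (10 shared) and 1 was higher, and 1 was higher with only the arrays compared. Same-numbered arrays of the split sides correlated at 0.0856, 0.115 and 0.180 at this time, which does not settle whether they are paired. At 8 hours the 1 lower member became 3 with the replicate block, 0 with the exchange and 0 with only the arrays compared, and 0 to 2 when single arrays were left out. The exchange gave 27 falls and 24 rises over time on the chloride side and 1 lower member for the change in the salt difference. Rises on the nitrate side were 4 with a filter at the 50th percentile, under which only 61 of the 100 were tested. A lower count under this filter can follow from fewer probe sets tested. Without single arrays the rises were as few as 4, with a highest count of 6. Listed genes called on split plates were 1 with the 18 split arrays, 6 with the exchange and 1 to 3 without single arrays; on uniform plates they were 1 with the filter at the 50th percentile, 5 with the replicate block and 1 to 3 without single arrays. AT1G80320 reversed to -1.58 under the exchange, where the split contrasts at 2 days hold arrays that the rule used. The rule applied to changed values kept 81 of the 100 with an offset of 1, 78 with 64, 79 after quantile normalization, 96 with an arithmetic mean filter (added after the data were seen), 35 without the brightness filter and 29 under the exchange. Where the cause of such a change lies was not tested. With dim probe sets, a signal near the offset limits the size of a difference.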
